A study of Mus musculus with 17 samples.

Results

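The change between day 1 and day 3 of retinoic acid (RA) treatment in wild-type R1/E mouse embryonic stem cells was followed in 6 of the 17 RNA sequencing libraries of the study. The groups were wild-type cells at day 1 and wild-type cells at day 3, with 3 biological replicates each, and no day 0 library entered the comparison. A gene was tested when its TPM, an abundance per transcript length scaled to an equal total in each library, reached 1 in at least 3 of the 6 libraries, which held for 18086 of 54532 genes. Both groups carried the same RA treatment, and no untreated library of the same day was used here, so RA and time in culture cannot be told apart. The RA dose is not given in the sources used here. Where the wild-type change is set beside that of *Usb1* knockout R1/E cells at the same days, the knockout groups also held 3 replicates each. The study used these cells to ask how wild-type and *Usb1* knockout cells compare in self-renewal and differentiation, and the wild-type arm serves as its control.

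RA is a vitamin A derivative that enters the nucleus and binds RA receptors (RARs), which sit as heterodimers with retinoid X receptors on RA response elements and switch from repression to activation of nearby genes once RA is bound. In embryonic stem cells RA ends self-renewal, and it is known for turning on Hox genes in the embryo. Depending on the culture, RA-treated embryonic stem cells can take neural, mesodermal or extraembryonic endoderm-like fates. Extraembryonic endoderm is the epithelium that surrounds the epiblast, lays down a thick basement membrane and takes up nutrients.

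Between day 1 and day 3, 3311 of the 18086 genes tested changed by at least 2-fold at an adjusted p under 0.05 (limma on log2(TPM + 1)), which is 18.3% of them. Of these, 1670 genes (9.23%) rose and 1641 genes (9.07%) fell. The change exceeded 8-fold on that scale for 180 genes that rose and 111 that fell. The median change over all genes tested was −0.07 on the log2 scale. The day 1 and day 3 libraries did not overlap for 11311 genes (62.5%), and for 3281 of the 3311 genes called. Among 13603 protein-coding genes, 1410 rose and 1178 fell, while among 610 lincRNA genes 43 rose and 129 fell. Of the genes tested, 493 passed the filter only through day 3 and 603 only through day 1, so that these genes had to differ, and 391 and 431 of them were called. The level of a gene in a bulk culture does not tell fewer cells of a type from less RNA per cell.

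The 6 libraries held 15843663 to 16400398 reads on genes, and replicates of a day correlated at r = 0.973 to 0.978 over the genes tested. At day 3, 23878 to 24208 genes had a value above 0, against 24511 to 24900 at day 1. The difference of −708 genes had p = 0.1 in a two-sided exact permutation test, which is the smallest p that 3 against 3 libraries allow. Mitochondrial genes took 4.441 to 4.657% of TPM at day 1 and 7.861 to 8.706% at day 3, and since TPM is a share of a total, the part of this shift in the other changes was not tested.

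Among the 12 genes with the largest rise, taken from the called genes without overlap of the groups and with a mean of at least 10 TPM at day 3, were 3 keratins of simple epithelium. *Krt18* was 29.4, 35.9 and 34.2 TPM in the day 1 libraries and 2209, 2253 and 2182 TPM in the day 3 libraries, a 66.8-fold rise in mean TPM (log2 change 6.02 ± 0.08, SE; adjusted p = 4.6e-08). Its partner in the keratin filament, *Krt8*, went from 61.7, 57 and 67.3 TPM to 2747, 2884 and 2799 TPM, a 45.3-fold rise (adjusted p = 4.6e-08). *Krt8* was the higher of the pair at both days, and their genes neighbour each other on chromosome 15 with starts 23698 bases apart. *Krt19* rose from 4.26, 3.66 and 4.39 TPM to 710.2, 735 and 658 TPM. For each of the 3 keratins, all day 3 libraries were above all day 1 libraries.

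Actin genes of muscle were near 0 at day 1. *Acta2*, the smooth muscle actin that is also made by mesenchymal cells, had 0 reads in all 3 day 1 libraries and 109.8, 103 and 116 TPM at day 3. Against the level that 3 reads would give in a day 1 library, this is at least 368-fold higher. *Acta1*, the skeletal muscle actin, was 1, 0.138 and 1.15 TPM at day 1 and 285, 274 and 277 TPM at day 3, the largest change under that rule on the log2(TPM + 1) scale (7.36 ± 0.23, adjusted p = 1e-06). With a pseudocount of 0.1 in place of 1 the order of the muscle actins turned, with log2 changes of 8.66 for *Acta1* and 10.1 for *Acta2*. *Igfbp5*, a binding protein for insulin-like growth factors, rose from 1.46, 1.48 and 1.32 TPM to 392, 304 and 441 TPM, and *Tgfb2*, a ligand of the TGF-beta family, from 0.493, 0.513 and 0.685 TPM to 87.7, 84.6 and 95.2 TPM. *Ttr*, which carries thyroid hormone and retinol-binding protein, rose from 0.361, 0.523 and 0.542 TPM to 81.7, 80.1 and 67.2 TPM. The other genes of the 12 were *Vnn1*, the pantetheinase vanin 1 (mean 0.355 ± 0.402 TPM at day 1 and 75.3 ± 6.89 TPM at day 3, SD, n = 3), *Foxf1*, a transcription factor of visceral mesoderm (0.298 ± 0.13 and 57.1 ± 5.89 TPM), *S100g*, a calcium-binding protein (0.916 ± 0.916 and 70.7 ± 6.01 TPM), and the microRNA gene *Mir351*. *Acta2*, *Tgfb2*, *Ttr*, *Vnn1* and *Foxf1* were under 1 TPM in every day 1 library. They passed the filter only through day 3 and had to be higher.

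**Figure D1:**
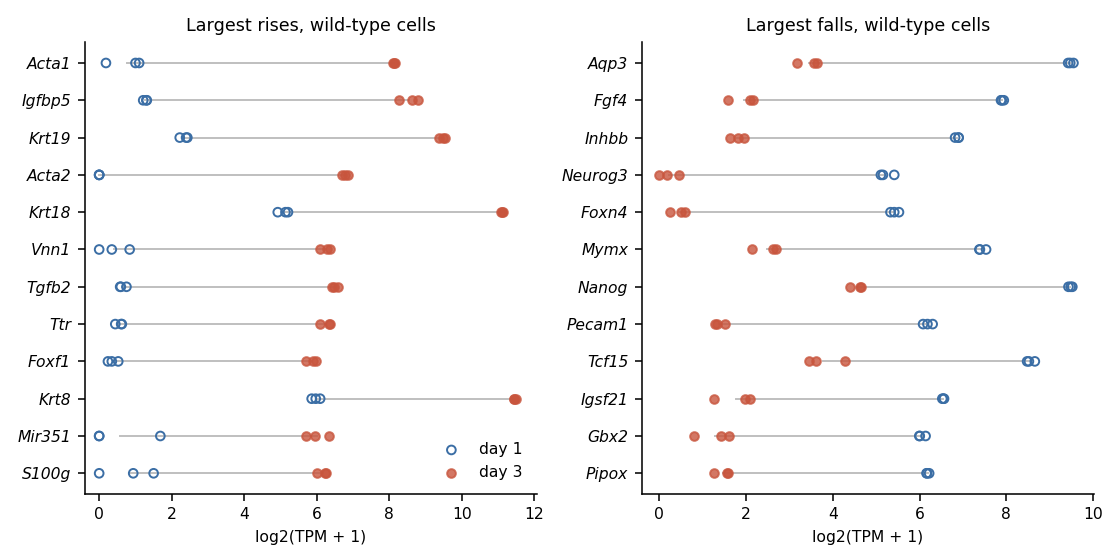
Level of the 12 genes with the largest rise (left) and the 12 with the largest fall (right) between day 1 and day 3 of RA in wild-type cells, on the log2(TPM + 1) scale, among genes called, without overlap of the groups and with a mean of at least 10 TPM at the higher day. Each point is 1 library (3 at each day, open circles for day 1 and filled circles for day 3) and the line joins the means; no day 1 point lies within the range of the day 3 points.

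The 12 largest falls were found by the same rule, with the mean of at least 10 TPM at day 1. *Aqp3*, a channel for water and glycerol, was 747, 710.1 and 686 TPM at day 1 and 11.3, 10.9 and 7.99 TPM at day 3, a 71-fold fall in mean TPM (log2 change −6.03 ± 0.12; adjusted p = 2.1e-07). *Fgf4*, the main FGF ligand of the epiblast, was 245, 237 and 234 TPM at day 1 and 3.45, 1.98 and 3.27 TPM at day 3, an 82.3-fold fall (adjusted p = 4.5e-07). *Nanog*, a core pluripotency factor, went from 689.9, 715 and 734 TPM to 23.5, 24.2 and 20.2 TPM, which is 31.5-fold (adjusted p = 7.9e-08). For all 3 the day 1 libraries lay far above those of day 3. *Neurog3*, a bHLH factor of endocrine progenitors of the pancreas, fell from 34.7, 33.5 and 41.7 TPM to 0.129, 0.379 and 0 TPM. *Foxn4*, a forkhead factor of retinal and spinal progenitors, went from 45, 41.7 and 39.2 TPM to 0.192, 0.502 and 0.413 TPM. *Neurog3* and *Foxn4* passed the filter only through day 1 and had to be lower at day 3. *Mymx*, a micropeptide of myoblast fusion, fell while the muscle actins rose, from 165, 184 and 167 TPM to 3.37, 5.14 and 5.42 TPM. The other falls among the 12 were those of *Inhbb*, a subunit of activin B (mean 116 ± 3.74 and 2.5 ± 0.404 TPM), *Pecam1*, an adhesion molecule of endothelium and of undifferentiated embryonic stem cells (72.1 ± 5.61 and 1.61 ± 0.235 TPM), *Tcf15*, a bHLH factor (375 ± 24.6 and 13.2 ± 4.51 TPM), *Igsf21*, a synaptic adhesion gene (92.4 ± 1.3 and 2.53 ± 1.01 TPM), *Gbx2*, a homeobox gene (65.1 ± 3.76 and 1.49 ± 0.668 TPM), and *Pipox*, a peroxisomal oxidase (71.8 ± 1.61 and 1.8 ± 0.336 TPM). Of the exon bases of *Gbx2*, 43.5% are shared with an overlapping gene, and whether the counting used strand is not given in the sources used here.

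The RA pathway itself was read from 22 genes of RA synthesis, binding, breakdown and reception, of which 19 were tested. Of these 4 rose and 2 fell, with a median log2 change of 0.36. For this and every later list, the shares over all genes tested were 9.23% higher and 9.07% lower. *Cyp26a1* and *Cyp26b1*, which encode enzymes that break down RA, were among the 4, while *Cyp26c1* of the same family was tested and not called. *Cyp26a1* was 104, 118 and 112 TPM at day 1 and 440.1, 419 and 347 TPM at day 3 (log2 change 1.84 ± 0.10; adjusted p = 8.6e-06). *Cyp26b1* was 4.23, 4.13 and 3.87 TPM and then 36.7, 33.1 and 30.6 TPM (log2 change 2.76 ± 0.10; adjusted p = 1.9e-06). The groups did not overlap for either gene, and at both days *Cyp26a1* was the higher. *Rdh10*, which makes retinaldehyde from retinol in the first step of RA synthesis, rose from 7.98, 5.51 and 7.68 TPM to 35.2, 33.4 and 31 TPM. The receptors went different ways. *Rarb* rose from 7.6, 6.78 and 6.65 TPM to 23.3, 24.1 and 28.1 TPM (adjusted p = 1.8e-05), *Rarg* fell from 132, 129 and 138 TPM to 48.9, 47.4 and 51.8 TPM (adjusted p = 2.3e-06), and *Rara* was 74.8 ± 0.558 TPM at day 1 and 61 ± 0.877 TPM at day 3, under the 2-fold limit. Of the exon bases of *Rarb*, 38.4% are shared with overlapping genes. Of the cellular RA-binding proteins, *Crabp1* fell from 31 ± 1.4 to 12.3 ± 3.95 TPM, and *Crabp2*, which carries RA to the receptor, was 71.1, 61 and 65.5 TPM at day 1 and 82.6, 101 and 73.5 TPM at day 3. *Stra6*, the membrane receptor for retinol-binding protein, was 15 ± 1.57 and 8.23 ± 0.541 TPM, and *Dhrs3*, which turns retinaldehyde back to retinol, 73.5 ± 1.87 and 97.8 ± 5.29 TPM, neither of them called.

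*Cyp26a1* and *Rarb* are the textbook genes with an RA response element of the DR5 type in the promoter, which is a pair of direct repeats of a half-site of 6 bases with 5 bases between them. The half-sites searched were AGGTCA or AGTTCA or GGGTCA or GGTTCA, with their complements, on both strands, in the RefSeq windows of GRCm38.p6 that reach from 250 bases before to 50 bases after each gene start. Such an element was present in 32 of 32851 windows (0.0974%), among them those of *Cyp26a1* and *Rarb*, which were the 2 of 1108 genes called higher that hold it. Of 975 genes called lower 1 holds it, and of 9257 genes not called 2 do. The stretches are shown because they hold the element upstream of a RefSeq start, with the half-sites in capitals, from chr19:37697736-37697807 (plus strand, the element beginning 32 bases before the start) and chr14:16575477-16575569 (minus strand, 53 bases before the start). For *Rarb* this RefSeq start lies 243680 bases inside the gene as annotated for the expression table, so it is an internal promoter there.
Cyp26a1 promoter: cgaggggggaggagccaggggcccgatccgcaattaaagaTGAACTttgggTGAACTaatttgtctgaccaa
Rarb promoter: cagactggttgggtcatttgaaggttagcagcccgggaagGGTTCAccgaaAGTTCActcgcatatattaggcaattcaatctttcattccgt

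Pluripotency factors were lower at day 3 as a group. Of 24 listed genes 23 were tested, 16 fell and none rose, with a median log2 change of −2.46 beside −0.07 over all genes tested. *Pou5f1*, the POU factor at the centre of the network, was 974, 956 and 983 TPM at day 1 and 63.8, 74.7 and 61.2 TPM at day 3, a 14.6-fold fall (log2 change −3.85 ± 0.08; adjusted p = 2.1e-07). *Sox2*, its partner on DNA, was 752, 699 and 752 TPM and then 109, 123 and 112 TPM, a 6.39-fold fall (log2 change −2.67 ± 0.06; adjusted p = 3.6e-07). *Esrrb*, an orphan nuclear receptor of naive cells, went from 117, 110.1 and 109 TPM to 3.82, 3.49 and 3.18 TPM (log2 change −4.65 ± 0.08; adjusted p = 1.5e-07). The groups of these 3 genes lay far apart, and *Sox2* had the highest level of the 3 at day 3. *Utf1*, *Klf2*, *Dppa5a* and *Zfp42* fell by 3.46, 3.21, 2.84 and 2.19 on the log2 scale. The Klf family was not of one kind: *Klf4* was 62.8, 58.7 and 64 TPM at day 1 and 57.6, 58.9 and 57.4 TPM at day 3, with overlapping groups (adjusted p = 0.19), and *Klf5* was 149 ± 10 and 79.5 ± 4.66 TPM, short of 2-fold. *Tbx3*, *Sall4* and *Dppa4* were also short of it (log2 changes −0.52, −0.48 and −0.75). The members with a positive change were *Lin28a*, an RNA-binding protein that blocks let-7 processing (76.9 ± 2.14 and 124 ± 5.67 TPM), and *Tdh*, a threonine-degrading enzyme (10.7 ± 0.715 and 20.9 ± 4.39 TPM), neither called.

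Genes of formative pluripotency, the state of the epiblast after implantation, fell as well. Of 13 tested of 15 listed, 7 fell and 1 rose (median −1.04). *Otx2* went from 6.14, 5.18 and 5.74 TPM to 0.563, 0.15 and 0.33 TPM and *Pou3f1* from 7.48, 7.23 and 7.21 TPM to 0.561, 0.604 and 0.904 TPM, both already low at day 1. Both passed the filter only through day 1 and had to be lower at day 3. *Etv4* and *Etv5* fell by 4.30 and 3.70 on the log2 scale. *Dnmt3l*, the inactive partner of the de novo DNA methyltransferases, was the member that rose (14.8 ± 1.46 to 35.6 ± 1.46 TPM), while *Dnmt3a* and *Dnmt3b* were not called.

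Genes of the primitive endoderm, the first extraembryonic endoderm of the blastocyst, rose. Of 12 listed genes, all tested, 9 rose and none fell, with a median log2 change of 2.76. *Foxa2*, a pioneer factor of endoderm, was 3.99, 4.39 and 4.46 TPM at day 1 and 172, 180.4 and 182 TPM at day 3, a 41.7-fold rise (log2 change 5.09 ± 0.07; adjusted p = 4.6e-08). *Sox17* was 0.599, 0.489 and 0.508 TPM and then 40, 40.3 and 38.6 TPM, a 74.5-fold rise (log2 change 4.73 ± 0.11; adjusted p = 3.5e-07). *Gata4* was 4.22, 4.84 and 5.3 TPM and then 81.7, 88.8 and 92.7 TPM (log2 change 3.94 ± 0.10; adjusted p = 4e-07). These 3 factors were below 6 TPM in every day 1 library. *Sox17* was under 1 TPM in each of them, so it passed the filter only through day 3 and had to be higher. *Gata6* and *Sox7* were higher at day 1 and changed less. *Gata6* was 30.1, 30.9 and 28.5 TPM and then 87.5, 84.6 and 96.5 TPM, and *Sox7* was 29.2, 29.9 and 30 TPM and then 57.3, 59 and 62.7 TPM, with a log2 change of 0.98 that misses the 2-fold limit. *Dab2*, an endocytic adaptor of the lineage, rose from 10.7 ± 0.87 to 116 ± 8 TPM, *Cited1* from 1.98 ± 0.525 to 57.8 ± 5.11 TPM, *Foxq1* from 3.44 ± 0.319 to 85.4 ± 4.85 TPM and the receptor gene *Pdgfra* from 3.2 ± 0.171 to 18.2 ± 0.14 TPM. Of the exon bases of *Foxq1*, 66.1% are shared with an overlapping gene. *Hnf4a*, the hepatocyte nuclear factor of visceral endoderm, was 2.41, 1.89 and 2.05 TPM at day 1 and 4.39, 5.3 and 5.33 TPM at day 3 and was not called. *Eomes* was 4.6 ± 0.543 TPM at day 1 and 2.12 ± 0.337 TPM at day 3, not called.

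Of 20 genes for uptake and transport in visceral endoderm, 15 were tested, 9 rose and none fell (median 1.42). The receptor complex for endocytosis was among them. *Cubn* went from 3.27, 3.38 and 3.66 TPM to 82.8, 77.7 and 101 TPM, *Amn* from 7.04, 7.95 and 9.2 TPM to 38.8, 57.3 and 35 TPM and *Lrp2* from 30.2, 22.8 and 24.1 TPM to 118, 114 and 162 TPM. These encode cubilin, its membrane anchor amnionless and the partner receptor megalin. The plasma proteins of the yolk sac were mixed. *Afp*, alpha-fetoprotein, had 0 reads at day 1 and 3.79, 3.7 and 3.37 TPM at day 3, at least 18-fold higher against 3 reads in a day 1 library. It passed the filter only through day 3 and had to be higher, as did *Ttr* and *Cdx2* of the same list. *Rbp4*, the retinol-binding protein, rose from 5.06 ± 1.58 to 15 ± 2.97 TPM and *Spink1* from 1.86 ± 2.31 to 23.3 ± 3.22 TPM. *Apoe* was 242, 251 and 220.4 TPM at day 1 and 236, 263 and 200.2 TPM at day 3, with overlapping groups. *Alb*, *Apoa1*, *Apoa4*, *Apoc2* and *Trf* did not reach the level needed for the test.

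**Figure D2:**
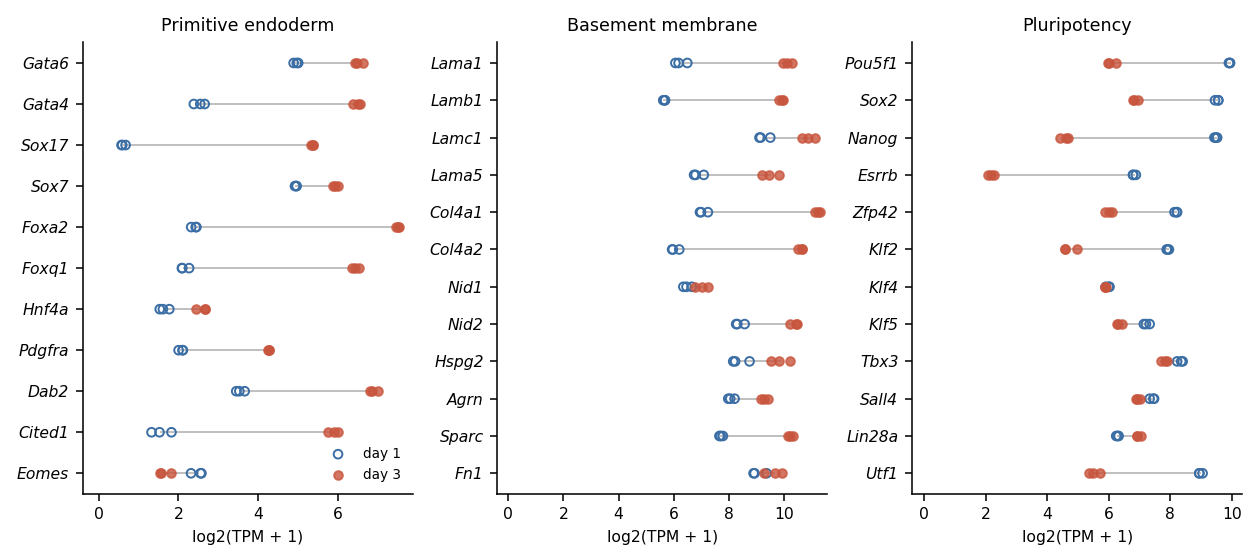
Level of primitive endoderm genes (left, 11 genes), 12 basement membrane genes (middle) and 12 pluripotency genes (right) in wild-type cells, on the log2(TPM + 1) scale, with 1 point for each of 3 libraries at day 1 (open) and day 3 (filled) and a line between the means. *Sox17* starts near the bottom of the scale and *Col4a1* and *Col4a2* end near its top, while *Klf4* and *Fn1* have overlapping groups.

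Basement membrane genes rose as well. Of 22 listed 20 were tested, 15 rose and none fell (median 1.89). Their summed level was 2643 to 3391 TPM at day 1 and 12490 to 15570 TPM at day 3. Type IV collagen is the network-forming collagen of this layer, and its chains *Col4a1* and *Col4a2* share a promoter on chromosome 8, with starts 21 bases apart on opposite strands. *Col4a1* was 150.0, 123 and 126 TPM at day 1 and 2411, 2206 and 2506 TPM at day 3 (log2 change 4.15 ± 0.09; adjusted p = 3e-07). *Col4a2* was 72.5, 61.5 and 60.4 TPM and then 1604, 1468 and 1623 TPM (log2 change 4.58 ± 0.08; adjusted p = 1.5e-07). The chains of laminin-111, the first laminin of the embryo, all rose but started from different levels. *Lama1* went from 89, 65.7 and 71.3 TPM to 1114, 985 and 1265 TPM, *Lamb1* from 50.2, 50.3 and 48.1 TPM to 970.0, 904 and 1005 TPM, and *Lamc1* from 724, 551 and 568 TPM to 1875, 1616 and 2241 TPM. The gamma chain was the most abundant of the 3 at both days and had the smallest log2 change (1.63, against 3.88 for *Lama1* and 4.25 for *Lamb1*). The linker *Nid2* rose from 334 ± 39.8 to 1334 ± 119.8 TPM while its paralog *Nid1* was 89.2 ± 9.8 and 129 ± 20.5 TPM and not called. The proteoglycans perlecan (*Hspg2*) and agrin (*Agrn*) rose by 1.47 and 1.21 on the log2 scale, the collagen-binding *Sparc* by 2.52 and laminin alpha 5 (*Lama5*) by 2.61. *Fn1*, fibronectin, was 659, 475 and 487 TPM at day 1 and 813, 621 and 971 TPM at day 3, with overlapping groups.

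Among 13 collagen genes tested outside type IV, 8 rose and 1 fell (median 2.14). *Col12a1* went from under 0.1 TPM in each day 1 library to 17.9, 14.8 and 21.3 TPM at day 3, and *Col5a1* from 13.1 ± 1.4 to 84.8 ± 6.47 TPM. The fibrillar chains *Col1a1* and *Col3a1* reached 24.1 and 4.16 TPM, far below type IV. *Col12a1* and *Col3a1* passed the filter only through day 3 and had to be higher. *Col13a1*, a transmembrane collagen, fell from 32.3, 30 and 28.9 TPM to 1.55, 1.7 and 1.31 TPM. On a list of 25 genes of the epithelial to mesenchymal transition, 16 rose and none fell (median 1.64), and many of these members are epithelial. The keratins above and the claudins *Cldn6* (16.4 ± 0.532 to 374 ± 35.2 TPM) and *Cldn4* (34.9 ± 2.44 to 213 ± 17.1 TPM) are genes of epithelial cells and junctions, and *Cdh2*, N-cadherin (2.29 ± 0.494 to 24.1 ± 1.02 TPM), *Vim*, vimentin (167 ± 2.2 to 523 ± 16.7 TPM) and *Snai1* (16.1 ± 0.496 to 35 ± 1.32 TPM) are mesenchymal. *Cdh1*, E-cadherin, was 440.5, 380.5 and 381 TPM at day 1 and 762, 689.8 and 773 TPM at day 3, higher in all 3 libraries but short of 2-fold, as was *Epcam* (84.3 ± 6.2 and 137 ± 7.65 TPM). *Zeb1*, a repressor of E-cadherin, was 15.3 ± 1.38 and 7.74 ± 0.892 TPM and not called.

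Transcription factors of mesoderm and mesenchyme rose in part. Of 30 listed 20 were tested, 13 rose and 1 fell (median 1.29). *Nr2f2* (COUP-TFII) was 0.408, 0.32 and 0 TPM at day 1 and 47.5, 45.9 and 50.2 TPM at day 3 (log2 change 5.31 ± 0.16; adjusted p = 8.7e-07). *Hand1*, a bHLH factor of heart, extraembryonic mesoderm and trophoblast, was 0.44, 0.213 and 0.221 TPM and then 28.4, 25.9 and 37.1 TPM (log2 change 4.59 ± 0.17; adjusted p = 2.1e-06). Both were under 1 TPM in every day 1 library, as was *Foxf1* of the same list. These genes passed the filter only through day 3 and had to be higher. *Tbx2* and *Gata2* rose to 16 ± 2.33 and 14.2 ± 1.39 TPM. *Foxp1* fell (37.4 ± 2.24 to 16.9 ± 1.73 TPM), and *Twist1* and *Tead2* were not called (log2 changes 0.24 and 0.03). *T*, *Mesp1*, *Mixl1*, *Gsc*, *Msgn1* and 5 more did not reach the level needed for the test, *T* and *Mixl1* being the classic genes of the primitive streak.

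Genes of neural progenitors and neurons were mostly absent or lower. Of 25 listed, 15 did not reach the test, and of the 10 tested 6 fell and 2 rose (median −1.27). *Sox1*, the earliest neuroectoderm factor, was 26.2, 26.1 and 24.9 TPM at day 1 and 1.61, 1.62 and 1.44 TPM at day 3 (log2 change −3.39 ± 0.11; adjusted p = 1e-06). *Tubb3*, a neuronal tubulin, fell from 60.8 ± 5.58 to 15 ± 1.05 TPM, *Zic5* from 9.44 ± 0.181 to 0.912 ± 0.288 TPM and *Elavl3* from 4.54 ± 0.546 to 0.224 ± 0.0351 TPM. Of these, *Elavl3* passed the filter only through day 1 and had to be lower at day 3. *Pax6* was 2.18, 1.49 and 2.13 TPM at day 1 and 0.869, 0.94 and 0.893 TPM at day 3, not called. *Nes*, nestin, an intermediate filament that is not confined to neural cells, rose from 8.15, 7.71 and 7.96 TPM to 85.6, 84.5 and 91.9 TPM. The other member that rose was *Isl1*, which the mesoderm list also holds.

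Of 39 Hox genes 31 were tested, 14 rose and 1 fell (median 0.68). In HoxC all 8 genes tested rose, in HoxB 4 of 10, in HoxD 2 of 4 and in HoxA none of 9, where *Hoxa7* fell. Of these, *Hoxc8*, *Hoxc9*, *Hoxc10* and *Hoxc12* in HoxC and *Hoxd8* and *Hoxd9* in HoxD passed the filter only through day 3 and had to be higher. The HoxC genes were low at day 1, when the 8 genes tested summed to 11.28 TPM with the highest mean at 6.755 TPM, and they summed to 91.32 TPM at day 3. *Hoxc4* was 7.02, 5.87 and 7.38 TPM at day 1 and 29, 24.8 and 30.6 TPM at day 3 (log2 change 1.91 ± 0.12; adjusted p = 2e-05). *Hoxc8* was 0, 0 and 0.156 TPM and then 15.9, 15.6 and 12.7 TPM (log2 change 3.90 ± 0.16; adjusted p = 3.3e-06). *Hoxc9* was 0.362, 0.35 and 0.0906 TPM and then 14.1, 14.9 and 16.7 TPM (log2 change 3.68 ± 0.16; adjusted p = 3.9e-06). *Hoxc8* and *Hoxc9* had the largest log2 changes of the list, above *Hoxc5* (2.75) and *Hoxc13* (1.93).

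HoxA was already high at day 1. Its 9 genes tested summed to 324.3 TPM at day 1 and 274.2 TPM at day 3. *Hoxa5* was 100.5, 108 and 112 TPM at day 1 and 99.7, 106 and 95 TPM at day 3, with overlapping groups, and *Hoxa4* was 59 ± 1.81 and 51.3 ± 2.65 TPM, neither of them called. *Hoxa7* was 13.9, 11.2 and 14.9 TPM and then 6.16, 5.8 and 6.21 TPM, with a log2 change of −1.01 at the edge of the call, which is lost without replicate 1 or 3 of day 1 or replicate 2 of day 3. Of its exon bases, 20.4% are shared with an overlapping gene. In HoxB *Hoxb1*, *Hoxb8*, *Hoxb9* and *Hoxb13* rose. *Hoxb1* went from 18.6, 13.8 and 14.8 TPM to 39.6, 36.5 and 33.6 TPM, *Hoxb9* from 33.6, 30.7 and 32.3 TPM to 74.9, 74.4 and 85.2 TPM and *Hoxb13* from 4.88, 7.03 and 6.19 TPM to 17.7, 19.4 and 18 TPM. *Hoxb4* was 44.7, 41 and 41.1 TPM and then 41.7, 42.7 and 42.9 TPM, with overlapping groups. HoxD was low throughout (4.1 TPM summed at day 1 and 11.36 TPM at day 3), with *Hoxd8* reaching 4.25, 4.08 and 2.11 TPM. Of 16 cofactor genes of the TALE class tested, 4 rose and none fell (median −0.12), namely *Meis1* (3.92 ± 0.641 to 25 ± 1.5 TPM), *Meis2* (9.95 ± 0.543 to 26 ± 1.44 TPM), *Meis3* (6.37 ± 0.284 to 29 ± 1.42 TPM) and *Irx1*.

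**Figure D3:**
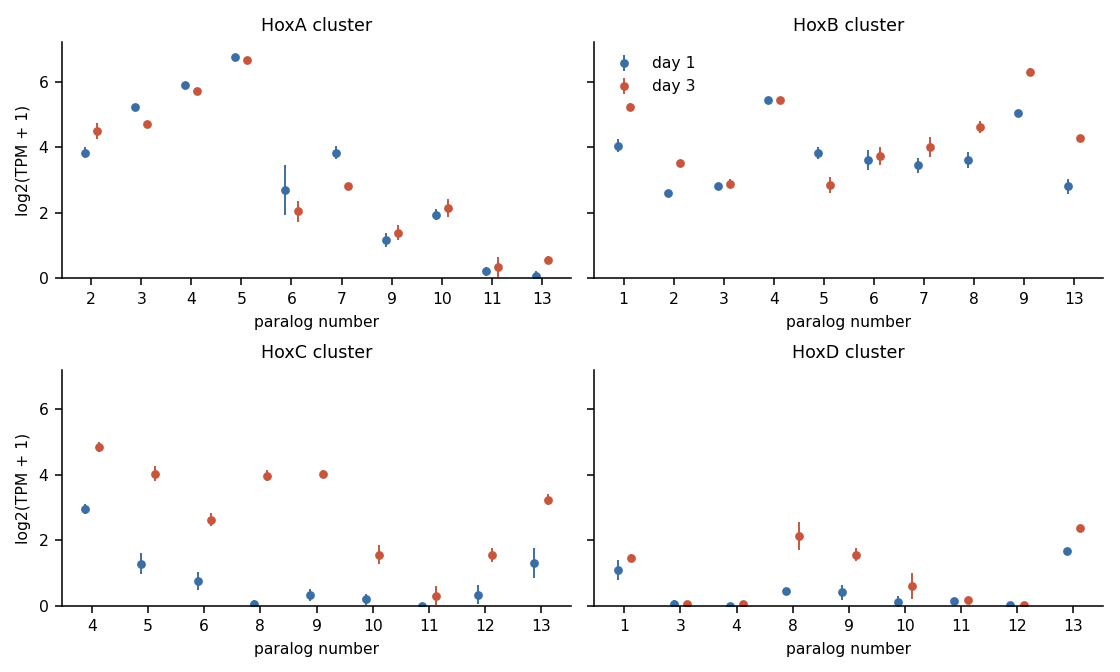
Mean level of 38 Hox genes at day 1 (blue) and day 3 (red) of RA in wild-type cells on the log2(TPM + 1) scale, by paralog number within each cluster; bars are the SD of 3 libraries. The HoxC points are all higher at day 3, while *Hoxa7* is lower at day 3.

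In the Nodal and activin pathway 16 of 20 genes were tested, 8 fell and 2 rose (median −0.99). The ligand *Nodal* was 202, 211 and 189 TPM at day 1 and 43.4, 40.3 and 34.2 TPM at day 3 (log2 change −2.33 ± 0.09; adjusted p = 2.6e-06). Its co-receptor *Tdgf1* (Cripto) went from 120.3, 107 and 106 TPM to 8.24, 9.27 and 4.95 TPM, and its target and inhibitor *Lefty1* from 705, 709 and 599 TPM to 48.3, 62.4 and 37.2 TPM. Ligand, co-receptor and feedback inhibitor thus all fell, each without overlap of the groups. *Lefty2*, *Gdf3* and the nuclear partner *Foxh1* fell by 1.26, 3.15 and 2.70 on the log2 scale. *Fst*, follistatin, which binds and blocks activin, rose from 1.58, 0.925 and 1.3 TPM to 19.3, 16.1 and 20.1 TPM.

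In the FGF pathway 19 of 21 genes were tested, 7 fell and 5 rose (median −0.63). Besides the ligand *Fgf4*, feedback genes of ERK signalling were among those that fell. *Spry4* went from 24.3, 23.8 and 23 TPM to 0.848, 1.06 and 0.809 TPM and *Dusp6* from 61.6, 59.5 and 65.8 TPM to 16.1, 17.5 and 17.6 TPM. The receptor *Fgfr2* rose from 12.8 ± 2.17 to 45.8 ± 2.04 TPM and the receptor *Fgfr3* from 3.89 ± 0.434 to 18.8 ± 0.841 TPM. In the LIF pathway, which holds embryonic stem cells in self-renewal, 3 of 14 genes rose and 4 fell (median 0.16). The receptor *Lifr* rose (23.5 ± 2.36 to 79.5 ± 7.73 TPM) and the target *Pim1* fell (93.6 ± 5.61 to 19.9 ± 1.64 TPM), while *Stat3* and *Socs3* were not called (log2 changes 0.22 and 0.57).

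In the BMP, Wnt and IGF lists more genes rose than fell. Of 21 BMP pathway genes tested, 7 rose and 1 fell (median 0.53). *Bmp2* was 0.371, 0.0597 and 0.186 TPM at day 1 and 10.3, 11.8 and 14.7 TPM at day 3, and *Bmp4* was 29.8 ± 0.775 and 43.7 ± 2.34 TPM, short of 2-fold. The BMP target *Id3* rose from 163 ± 9.41 to 482 ± 27.8 TPM, and so did the inhibitors *Bambi* (9.64 ± 0.608 to 77.5 ± 6.57 TPM), *Smad6* (38.6 ± 3.56 to 135 ± 2.41 TPM) and *Nog* (0.215 ± 0.151 to 8.33 ± 1.6 TPM). *Bmp2* and *Nog* passed the filter only through day 3 and had to be higher, as did the Wnt target *Sp5* below. Of 31 Wnt pathway genes tested, 16 rose and 5 fell (median 1.16). *Dkk1*, a secreted Wnt inhibitor, was 1.54, 1.66 and 2.63 TPM at day 1 and 88.6, 94.3 and 87.8 TPM at day 3, and the ligand *Wnt6* was 5.11, 5.62 and 3.11 TPM and then 50.5, 49.8 and 50.1 TPM. The receptor *Fzd2* rose from 48.5 ± 3.08 to 376 ± 7.57 TPM, and the inhibitor *Sfrp1* fell from 131 ± 13.7 to 28.6 ± 4.81 TPM. The Wnt targets *Sp5* and *Axin2* rose to 7.72, 7.04 and 8.62 and to 4.24, 6.45 and 7.92 TPM, the latter from 2.16 TPM, a call that is lost without replicate 3 of day 3 (log2 change 0.98).

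Of 13 genes of the IGF family tested 7 rose and none fell (median 1.29). *Igf2*, the fetal growth factor, was 0.192, 0.186 and 0.115 TPM at day 1 and 16.5, 15.1 and 23.5 TPM at day 3 (log2 change 4.03 ± 0.19; adjusted p = 5.5e-06), although 64.5% of its exon bases are shared with overlapping genes. *Igf2* also passed the filter only through day 3 and had to be higher. Its signalling receptor *Igf1r* rose from 12.1 ± 1.24 to 63.7 ± 8.9 TPM and its clearance receptor *Igf2r* from 72.2 ± 10.2 to 178 ± 29 TPM, while *Igfbp2*, the most abundant binding protein at day 1, was 1570.2 ± 62.7 and 2668 ± 134 TPM. *Igf2* and *Igf2r* are imprinted, and the 30 imprinted genes listed, all tested, held 16 that rose and 2 that fell (median 1.13). The neighbours *Peg3* and *Zim1* on chromosome 7 had the largest log2 changes of (TPM + 1), while in mean TPM *Igf2* rose 112-fold, *Zim1* 51.8-fold and *Peg3* 38.1-fold. *Peg3* was 23.2, 16.4 and 18.8 TPM at day 1 and 689, 631 and 907 TPM at day 3 (log2 change 5.18 ± 0.16; adjusted p = 1.1e-06). *Zim1* was 2.45, 2.18 and 1.77 TPM and then 104, 96.6 and 131 TPM (log2 change 5.15 ± 0.14; adjusted p = 6.1e-07). They are expressed from opposite parental alleles in the embryo, which these data do not resolve. In the Dlk1-Dio3 region *Dlk1*, *Meg3*, *Rian* and *Mirg* rose by 2.18, 2.08, 1.64 and 1.68 on the log2 scale. *Peg10*, *Mest* and *Grb10* rose by 2.84, 1.90 and 1.57. *H19* rose from 0, 0.432 and 0.0895 TPM to 4.39, 2.15 and 4.43 TPM. Like *Igf2*, *H19* passed the filter only through day 3 and had to be higher. *Plagl1* rose by 1.07, a call that is lost without replicate 2 of day 1 or replicate 3 of day 3. The imprinted growth inhibitors *Cdkn1c* (326, 334 and 345 TPM at day 1 and 78.3, 85.7 and 81 TPM at day 3) and *Phlda2* (204 ± 12.9 to 79 ± 3.32 TPM) fell. Overlapping genes share 23.1% of the exon bases of *Mest* and 30.7% of those of *Cdkn1c*.

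Cell cycle genes moved in both directions, with 7 of 33 rising and 5 falling (median −0.34). *Ccnd1*, cyclin D1, was 101, 81.1 and 97.1 TPM at day 1 and 5.55, 6.73 and 7.73 TPM at day 3, a 14-fold fall, with 23.4% of its exon bases shared with an overlapping gene, while *Ccnd2*, cyclin D2, rose from 13.5, 11.4 and 11.6 TPM to 33.1, 32.9 and 42.2 TPM. *Ccne1* fell from 224 ± 7.96 to 94.1 ± 3.33 TPM. The inhibitors of the Ink4 locus rose, *Cdkn2a* from 15.2, 10.3 and 10.9 TPM to 128, 140.3 and 118 TPM and *Cdkn2b* from 3.16, 4.58 and 2.06 TPM to 53.5, 64.2 and 50.1 TPM, and so did *Cdkn1a*, p21 (38.2 ± 0.762 to 105 ± 6.05 TPM). *Myc* rose from 21 ± 1.36 to 52.3 ± 2.04 TPM. *Mki67* and *Cdk1*, which mark dividing cells, were 176 ± 32 and 162 ± 7.51 TPM at day 1 and 139 ± 18.1 and 92.2 ± 4.58 TPM at day 3, neither called. All 32 DNA replication genes had a negative log2 change (−0.04 to −1.38, median −0.74), and 7 of them fell past 2-fold, with *Mcm5* at 669.5 ± 13.9 and 256 ± 6.59 TPM and *Pcna* at 398 ± 10.4 and 186 ± 14.7 TPM.

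Of 22 glycolysis genes 4 fell and none rose (median −0.54), with *Ldha*, lactate dehydrogenase, at 1109.8, 1115 and 1106 TPM at day 1 and 433, 484 and 404 TPM at day 3, the lactate exporter *Slc16a3* at 104 ± 12.4 and 35.7 ± 1.87 TPM, and *Pkm* and *Slc2a1* short of 2-fold (log2 changes −0.96 and −0.70). Of 25 cholesterol synthesis genes 1 rose and none fell (median −0.08). Of 25 Polycomb and DNA methylation genes 4 rose and 4 fell (median −0.38). The methylcytosine dioxygenases moved apart, as *Tet1* fell from 56.6, 44.1 and 46.8 TPM to 9.54, 9.97 and 13.5 TPM, *Tet2* fell from 34.8 ± 6.22 to 14.8 ± 1.93 TPM and *Tet3* rose from 12.6 ± 1.9 to 26.2 ± 3.95 TPM, the last at the limit of the call, which is lost under either other scaling of the libraries (log2 change 0.98) and without replicate 2 of day 1 or replicate 3 of day 3. *Ezh2*, the Polycomb methyltransferase, was 87.4 ± 2.82 and 46.1 ± 1.8 TPM and not called. Of 22 p53 targets 2 rose (*Cdkn1a* and *Btg2*) and 1 fell (*Gdf15*, 23.4 ± 2.22 to 2.22 ± 1.15 TPM; median 0.17). Of 16 genes of U6 snRNA biogenesis tested, 1 fell and none rose (median −0.33), namely *Lsm5* (80.1 ± 2.32 to 32.5 ± 5.28 TPM). Over all genes tested 18.3% were called, beside which the counts of the lists in this paragraph are to be read. *Usb1*, the gene disrupted in the knockout cells, was 56.9, 48.6 and 51.9 TPM at day 1 and 33.7, 32 and 35.8 TPM at day 3 in wild-type cells, a log2 change of −0.62 ± 0.08 (adjusted p = 0.00051) short of 2-fold. In the knockout, whose mutant transcript would encode a truncated protein by the study's description, *Usb1* was 20.7, 21.4 and 18.5 TPM at day 1 and 14.7, 17.2 and 20.4 TPM at day 3, below every wild-type library of the same day. *Tut1*, which adds the oligo(U) tail to U6 snRNA, was 54.1 ± 2.9 and 64 ± 2.88 TPM.

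Genes of meiosis and the germline, several of which respond to RA in the gonad, also split. Of 21 tested 6 rose and 8 fell (median 0.00). *Stra8*, the RA-induced gatekeeper of meiosis, was the most abundant and fell from 841, 861 and 905 TPM to 314, 305 and 281 TPM. *Dazl* fell from 26.2, 26.5 and 25.3 TPM to 4.58, 6.58 and 6.92 TPM. *Rec8*, the meiotic cohesin, rose from 100.1, 102 and 103 TPM to 323, 314 and 318 TPM, and *Stag3*, its partner subunit, from 61 ± 4.11 to 149 ± 7.64 TPM. *Meioc* and *Rhox6* rose to 68.5 ± 4.85 and 18 ± 3.15 TPM.

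**Figure D4:**
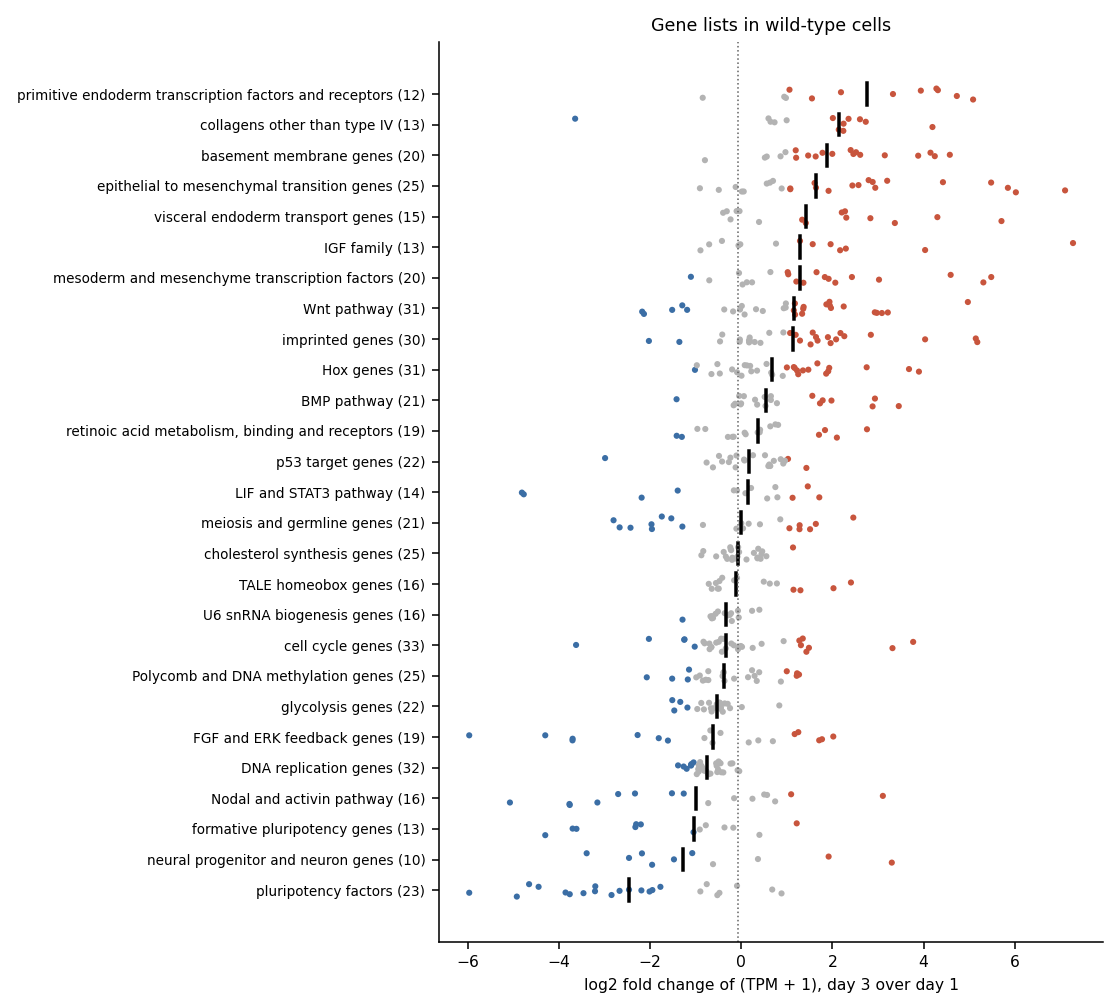
Log2 fold change of (TPM + 1) from day 1 to day 3 for every tested member of 27 gene lists in wild-type cells, ordered by the median of the list (black bar), with the number of genes tested in brackets. Red points rose, blue points fell and grey points were not called, and the dotted line is the median of all genes tested (−0.07). Primitive endoderm genes stand at one end (median 2.76) and pluripotency factors at the other (median −2.46).

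MicroRNA genes were read only through reads on their hairpins, since the libraries were not made for small RNA, so mature levels are not given by these data. Of 201 such genes tested 21 rose and 18 fell, with few reads behind each, while over all genes tested 9.23% rose and 9.07% fell. *Mir351* had 1, 0 and 0 reads at day 1 and 28, 24 and 34 reads at day 3. Other hairpins of its cluster on chromosome X, named after their values were seen, moved with it: *Mir322* and *Mir503* had 0 reads at day 1 and 3 to 4 and 2 to 6 reads at day 3. Of another cluster on the same chromosome, *Mir363* and *Mir92-2*, also named after their values were seen, had 4 to 12 and 1 to 6 reads at day 1 and 0 at day 3. Their mature sequences (RefSeq, GRCm38.p6) are shown with the seed, bases 2 to 8, in capitals, in the order of the hairpins above, and the last 2 have the same seed. The filter was passed through 1 day only by *Mir322*, *Mir503*, *Mir363* and *Mir92-2*, so that they had to differ. Against 3 reads in a library of the day at 0, *Mir322* and *Mir503* were at least 1.119-fold and 1.116-fold higher at day 3, and *Mir363* and *Mir92-2* at least 2.639-fold and 1.331-fold lower.
mmu-miR-351-5p: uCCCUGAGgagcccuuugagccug
mmu-miR-322-5p: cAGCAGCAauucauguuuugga
mmu-miR-503-5p: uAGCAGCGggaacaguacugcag
mmu-miR-363-3p: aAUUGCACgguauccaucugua
mmu-miR-92a-3p: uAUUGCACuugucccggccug

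Markers of cells that an embryonic stem cell culture could hold were read beside these changes. Of 8 embryonic stem cell markers 7 fell. Their summed level was 8477 to 8945 TPM at day 1 and 1051 to 1275 TPM at day 3, most of both sums being *Dppa5a*. All 8 were still detected at day 3, from 3.18 to 3.82 TPM for *Esrrb* up to 709 to 897 TPM for *Dppa5a*. Of 12 trophoblast markers 9 were tested, 5 rose and 1 fell. Their sums were 29.92 to 34.86 TPM at day 1 and 129.9 to 145.5 TPM at day 3. The 5 that rose were *Gata3* (1.76 to 2.44 TPM at day 1 and 55.8 to 61.8 TPM at day 3), *Hand1*, *Krt7* (0.125 to 0.181 and 11.9 to 13.3 TPM), *Plac1* (0.457 to 0.474 and 9.48 to 13.3 TPM) and *Cdx2* (0.0974 to 0.564 and 7.2 to 8.98 TPM). Of these, *Hand1*, *Krt7*, *Plac1* and *Cdx2* were under 1 TPM in every day 1 library. They passed the filter only through day 3 and had to be higher. *Tfap2c* fell, *Prl3d1* and *Tpbpa* were at 0 and *Elf5* was under 1 TPM in all 6 libraries. The part of trophoblast cells in these rises was not tested. Of 12 fibroblast feeder markers 7 were tested and 5 rose. Their sums were 23.54 to 27.38 TPM at day 1 and 162.3 to 188.7 TPM at day 3, most of the day 3 sum being *Acta2*. The others that rose were *Dcn* (0 TPM in each day 1 library and 14.2 to 16.4 TPM at day 3), *Col1a2* (0.171 to 0.301 and 4.78 to 5.15 TPM), *Col1a1* and *Col3a1*. Of the markers that rose, *Acta2*, *Dcn*, *Col1a2* and *Col3a1* were under 1 TPM in every day 1 library. These passed the filter only through day 3 and had to be higher. *Lum*, *Postn*, *Fbln5*, *Mgp* and *S100a4* were under 1 TPM in all 6 libraries. The part of such cells in these rises was not tested. Of 12 endothelium and blood markers 5 were tested, 2 rose and 1 fell. Their sum was 78.76 to 88.09 TPM at day 1 and 12.63 to 15.58 TPM at day 3. Most of the day 1 sum was *Pecam1*, and *Ptprc* and *Hbb-bt* were at 0. Among those tested, *Kdr* passed the filter only through day 3 and had to be higher.

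The *Usb1* knockout libraries, which come from 1 clonal line, share no library with the wild-type comparison. The same genes were fitted there, together with the wild-type libraries. At day 3 against day 1, 2038 genes (11.3%) rose and 1206 genes (6.67%) fell in knockout cells. Of the genes called in wild-type cells 2218, or 67.0%, were called in the same direction in the knockout, which is 68.4% of the knockout calls. The sign was the same for 3196 of the 3311 genes (96.5%). Over all genes tested the log2 changes of both genotypes had r = 0.844 (Spearman 0.785), a description across genes, which are not independent and share the libraries of each genotype. The median knockout change was −2.44 for the pluripotency factors, 2.85 for the primitive endoderm genes and 1.70 for the basement membrane genes, beside 0.07 over all genes tested.

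The difference of the changes, tested in the 12 libraries, was called for 542 genes, or 3.00% of those tested (limma interaction). In 126 of them the wild-type change was the higher and in 416 the lower, and the median difference over all genes was −0.14. The split depended on scaling: with quantile normalization 205 were higher and 255 lower. RA genes were among the genes with a difference. *Cyp26a1*, which rose in wild-type cells, was 116, 107 and 108 TPM at day 1 and 84.3, 113 and 69 TPM at day 3 in the knockout, with overlapping groups and a day 1 level near that of wild-type cells, and the wild-type change was higher by 2.18 ± 0.21 on the log2 scale (SE; adjusted p = 0.00015). *Crabp2* was 11.6, 6.9 and 8.28 TPM and then 148, 141 and 130.3 TPM in the knockout, below the wild-type libraries at day 1 and above them at day 3, and the difference was −3.49 ± 0.22 (adjusted p = 1e-05). *Tdh* was 35.2, 35.2 and 32.8 TPM and then 9.48, 9.31 and 8.38 TPM in the knockout, and fell there (difference 2.70 ± 0.18, adjusted p = 1.3e-05). *Sox17* and *Cited1* rose in both genotypes and by more in wild-type cells (differences 1.53 ± 0.18 and 1.60 ± 0.25, adjusted p = 0.00043 and 0.0028). *Nanog* fell in both and by more in wild-type cells (−4.92 against −3.54; adjusted p of the difference = 1.9e-05). *Dusp6* fell in wild-type cells and had a log2 change of 0.19 in the knockout (difference −2.0 ± 0.10, adjusted p = 2.2e-06). *Dusp6* belongs to the FGF and ERK feedback list, in which 10 of 19 genes had a called difference, and whose median change was −0.63 in wild-type cells and 0.35 in the knockout. Of its members named here *Fgf4*, *Spry4*, *Dusp6* and *Etv5* kept the call under both other scalings and *Fgfr2* did not.

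**Figure D5:**
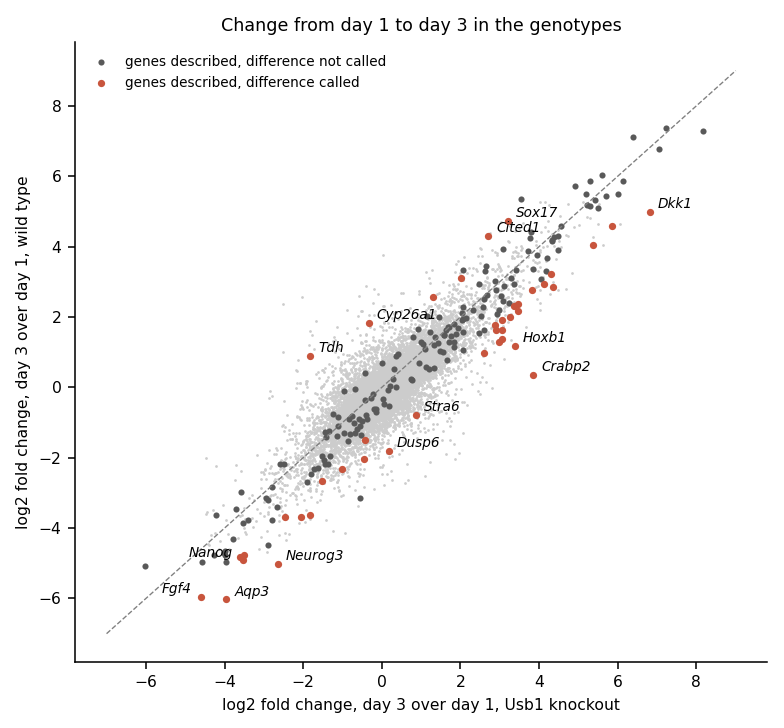
Log2 fold change of (TPM + 1) from day 1 to day 3 in *Usb1* knockout cells (horizontal) and wild-type cells (vertical). Small grey points are the 18086 genes tested, dark points genes described in the text and red points those among them with a called difference between the genotypes; the dashed line marks equal changes. *Cyp26a1* and *Tdh* lie above the line, and *Crabp2*, *Hoxb1* and *Dkk1* below it.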

How the data were processed

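Total RNA libraries of R1/E mouse embryonic stem cells were analysed from the table the authors deposited, which gives TPM per gene and library. The submitters' processing notes name HISAT2 2.1.0, StringTie 1.3.6 and GRCm38.p6; whether counting used strand, and how multiply mapped reads were treated, is not given in the sources used here. The study's methods describe a count model, which was not used on the deposited TPM values.

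Genes that reached 1 TPM in 3 or more of the 6 wild-type libraries were tested on log2(TPM + 1) with limma 3.58.1 (R 4.3.3; trended empirical Bayes, two-sided, Benjamini-Hochberg over all genes tested). This scale understates the change of low genes. Calls needed an adjusted p under 0.05 and a change of 2-fold or more. The knockout change and the difference between genotypes were fitted on 12 libraries. Errors of means are SD of 3 libraries and errors of log2 changes are SE; p-values measure the spread between these replicates. Reads per gene were recovered from TPM and gene length and used for depth and for the floor of 3 reads, which covers counting error only. Figures were drawn in matplotlib 3.10.9, and tables were made in pandas 2.3.3 with numpy 2.4.6, all under Python 3.11.15. The fits were tested on simulated data.

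Named genes came from the gene lists, plus up to 12 largest rises and 12 largest falls among called genes without overlap of the groups and with a mean of at least 10 TPM at the higher day; others are said to be chosen after their values were seen. The genes compared and the lists were chosen with earlier results of these data known. Alternatives covered scaling, filters, the pseudocount, thresholds, the variance model, a replicate block and each replicate left out. Values of a few list members are not reported here, although the list counts include them.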

Additional observations from a re-analysis of the deposited data

Results flagged for a closer look

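In the limma interaction test, 41 of the 205 named genes changed differently in wild-type and *Usb1* knockout cells from day 1 to day 3. A call needed an adjusted p under 0.05 and at least a 2-fold difference. Over all 18086 genes tested, 542 were called, or 3.00%. Some of the named genes, such as *Aqp3* and *Neurog3*, were taken for the largest wild-type rises and falls. That choice by itself favours a larger change in wild-type cells than in the knockout, so the named genes are not an even sample. The values in parentheses are the wild-type minus the knockout log2 change of (TPM + 1). Such a difference can lie in the levels of either day. *Hoxb1* had means of 15.7 TPM in wild-type and 3.04 TPM in knockout cells at day 1, and 36.5 and 40.9 TPM at day 3. *Gata2* had means of 4.87 and 4.24 TPM at day 1, and 14.2 and 42.9 TPM at day 3.

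Genes that rose in wild-type cells with a higher change than in the knockout were *Cited1* (1.60), *Cldn4* (1.28), *Cyp26a1* (2.18), *Fst* (1.08) and *Sox17* (1.53). Genes that rose in wild-type cells with a lower change than in the knockout were *Cdh2* (−1.17), *Col1a1* (−1.26), *Col3a1* (−1.11), *Cyp26b1* (−1.07), *Dkk1* (−1.86), *Dlk1* (−1.28), *Fgfr2* (−1.10), *Gata2* (−1.70), *Hand1* (−1.26), *Hoxb1* (−2.20), *Igf2* (−1.33), *Lrp2* (−1.06), *Meis2* (−1.68), *Mest* (−1.16), *Peg10* (−1.52), *Rec8* (−1.26), *Vim* (−1.42) and *Wnt6* (−1.10). Genes that fell in wild-type cells with a more negative change than in the knockout were *Aqp3* (−2.08), *Ccnd1* (−1.79), *Cdkn1c* (−1.57), *Dusp6* (−2.0), *Etv5* (−1.23), *Fgf4* (−1.37), *Gbx2* (−1.26), *Nanog* (−1.38), *Neurog3* (−2.36), *Otx2* (−1.30), *Pecam1* (−1.19), *Slc16a3* (−1.07), *Sox2* (−1.13) and *Spry4* (−1.65). The gene not called in wild-type cells with a higher change than in the knockout was *Tdh* (2.70). Genes not called in wild-type cells, with a lower change than in the knockout, were *Crabp2* (−3.49), *Sox7* (−1.61) and *Stra6* (−1.66).

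Of the 41 differences, 31 were also called under quantile normalization and under scaling to an equal median, and 0 changed sign. The other 10 were not called under at least one of these scalings, namely those of *Cdh2*, *Cyp26b1*, *Fgfr2*, *Hand1*, *Lrp2*, *Mest*, *Pecam1*, *Slc16a3*, *Sox2* and *Wnt6*.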

How the results depend on the processing

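Of the changes of the named genes, 0 reversed under any alternative. The 3311 wild-type calls became 9940 with adjusted p alone (4475 higher and 5465 lower) and 6054 at 1.5-fold (2891 and 3163). Genes called lower numbered 1065 with TPM of at least 5, and 1072 with TPM of at least 1 at both days, an alternative chosen after seeing the data. Leaving out each replicate gave 3284 to 3376 calls, 1626 to 1711 higher and 1573 to 1742 lower. Calls under the other alternatives were within 1.5 times of the main count. For the difference between genotypes, the 542 calls became 1895 with adjusted p alone (418 higher and 1477 lower) and 1214 at 1.5-fold (262 and 952), with 205 higher and 255 lower under quantile normalization and 252 lower under an equal median; leaving out each replicate gave 420 to 671 calls, 103 to 136 higher and 316 to 535 lower. With the replicate block the counts were 3315 and 481. Same-numbered wild-type libraries correlated at 0.00114, 0.0529 and 0.0117 in their deviations, and differently numbered ones at −0.0775 to 0.0638. No effect of pairing by number was visible, and whether the samples were paired is not given in the sources used here. The difference in genes detected was −483.3 at TPM of at least 1 (exact permutation p = 0.1). The causes of these shifts were not tested. Depth limits the microRNA genes and other genes with few reads most.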
